A study of Rattus norvegicus with 6 samples.

Results

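The 10 genes described here encode the subunits of transducin, the G protein of vertebrate phototransduction, and the proteins that bind it or switch it off. They were chosen by name and found by symbol, ignoring case, in the deposited gene table, where all 10 had a row among 19623 symbols. The series was made to ask how the retina of a degenerating rat strain differs from wild type and what a cell graft changes in it. By the labels, 6 retinal RNA samples taken at postnatal day 60 form 3 groups of 2. The first group is Royal College of Surgeons (RCS) rats, whose photoreceptors degenerate because of a mutation in the phagocytosis receptor gene Mertk, with human neural progenitor cells (hNPCs) placed under the retina. The second is RCS rats with sham surgery, and the third is Long Evans rats, a wild-type strain, with sham surgery. All 3 groups had surgery at postnatal day 21, and sham eyes received only the medium that carries the cells. From each eye the graft-bearing portion of the neural retina, or its counterpart, was taken, and the labels do not say whether samples are separate animals. The table holds 1 FPKM value per gene (fragment numbers scaled to transcript length and to sequencing depth, so a level per length) and names no sample, so it can be tied to no strain and no treatment. Everything below therefore compares genes with one another within 1 pooled or single measurement of rat retinal RNA. In such RNA, fewer cells of a type and less RNA per cell cannot be told apart.

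In photoreceptors, light-activated visual pigment makes the alpha subunit of transducin exchange GDP for GTP. The alpha subunit then leaves the beta-gamma pair and activates the phosphodiesterase that hydrolyses cyclic GMP. Rods and cones use different genes for each subunit: Gnat1, Gnb1 and Gngt1 in rods, and Gnat2, Gnb3 and Gngt2 in cones. The signal ends when alpha hydrolyses its GTP. That step is speeded by a complex of RGS9, its obligate partner G beta 5 (Gnb5) and the membrane anchor R9AP (Rgs9bp), which both photoreceptor types use. Phosducin (Pdc) binds the beta-gamma pair and takes part in its assembly and light-driven movement.

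RefSeq, in rat build GRCr8, gave a promoter window for 6 of the 10 genes: Gnb1, Gngt1, Gnb5, Rgs9, Rgs9bp and Pdc. The 250 bases upstream of the start are shown for Gngt1 and Pdc, the highest genes with a window, and for Rgs9 and Gnb5, whose products form one complex. Capitals mark matches, on either strand, to any of 4 short motifs: TAATCC (CRX-type, a photoreceptor homeodomain motif), TGCTGA (NRL-type), TATAAA (the box bound by TBP) and GGGCGG (GC box). The windows lie at chr4:32960695-32960944 (plus strand) for Gngt1, chr13:64908057-64908306 (plus strand) for Pdc, chr10:94770388-94770637 (minus strand) for Rgs9 and chr8:84956379-84956628 (plus strand) for Gnb5.
Gngt1: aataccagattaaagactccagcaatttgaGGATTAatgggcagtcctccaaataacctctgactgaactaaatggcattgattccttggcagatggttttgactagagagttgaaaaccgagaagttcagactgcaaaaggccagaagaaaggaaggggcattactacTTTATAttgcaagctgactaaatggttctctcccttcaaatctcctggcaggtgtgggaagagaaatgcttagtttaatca
Pdc: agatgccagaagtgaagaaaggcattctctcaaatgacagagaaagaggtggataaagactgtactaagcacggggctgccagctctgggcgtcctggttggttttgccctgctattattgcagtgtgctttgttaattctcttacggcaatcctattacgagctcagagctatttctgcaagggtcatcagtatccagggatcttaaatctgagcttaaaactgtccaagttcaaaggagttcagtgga
Rgs9: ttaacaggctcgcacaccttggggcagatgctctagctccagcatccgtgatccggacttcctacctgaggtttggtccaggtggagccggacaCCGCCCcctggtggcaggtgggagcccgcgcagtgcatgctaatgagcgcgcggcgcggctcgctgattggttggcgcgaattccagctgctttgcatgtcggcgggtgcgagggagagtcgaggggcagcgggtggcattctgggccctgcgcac
Gnb5: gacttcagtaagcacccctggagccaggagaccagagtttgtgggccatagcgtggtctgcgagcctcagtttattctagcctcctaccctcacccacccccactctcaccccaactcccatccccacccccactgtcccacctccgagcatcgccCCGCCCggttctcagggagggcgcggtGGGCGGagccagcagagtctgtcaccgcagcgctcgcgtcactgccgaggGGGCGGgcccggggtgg

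The 6 windows fell into 2 sets by base composition. None was available for Gnat1 or the cone subunits, so rod and cone genes could not be compared. The windows of Gngt1, Gnb1 and Pdc held few CpG dinucleotides, at 1, 0 and 4, with 41.2%, 47.6% and 45.2% G and C. Those of the RGS9 complex held 21 in Rgs9, 16 in Gnb5 and 18 in Rgs9bp, with 65.6%, 67.6% and 62.4% G and C. Over all 33469 RefSeq windows of this length the median was 5 CpG and 51.2% G and C, so the 2 sets fell on opposite sides of it. Pdc, with 4 CpG, lay close to that median. This is a description of 6 windows and was not tested. The CRX-type letters were found in 1 of the 6 windows, that of Gngt1, in bases -220 to -215 before the start, against 6.34% of all windows. TBP-type letters occurred in Gngt1, in bases -81 to -76, and in Gnb1, in bases -233 to -228, against 12.9% of all windows. Both lie on the strand opposite to the gene, and whether TBP binds there was not tested. GC boxes occurred in Gnb5, with 3 matches, and in Rgs9, with 1, against 30.5% of all windows. NRL-type letters were in none of the 6 and in 15.1% of all windows. None of the matches overlapped another. RefSeq lists several transcripts for Gnb1 and Pdc, and each window belongs to 1 start. The first window listed for a gene was taken and other starts were not examined. The 2 sets therefore hold for these windows only.

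Among the 10 genes, the rod alpha and gamma subunits were highest and the cone subunits lowest. All 10 stood at 1 FPKM or more, against 61% of all symbols, and all 10 at 10 FPKM or more, against 28.9%. At 100 FPKM or more there were 7 of them, against 1.79% of all symbols. The median of the 10 was 298 FPKM, and that of all symbols was 3.17 FPKM. Of the total FPKM over all rows, the 10 genes made up 4.98%. The highest and the lowest, both gamma subunits, lay 141-fold apart.

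**Figure D1:**
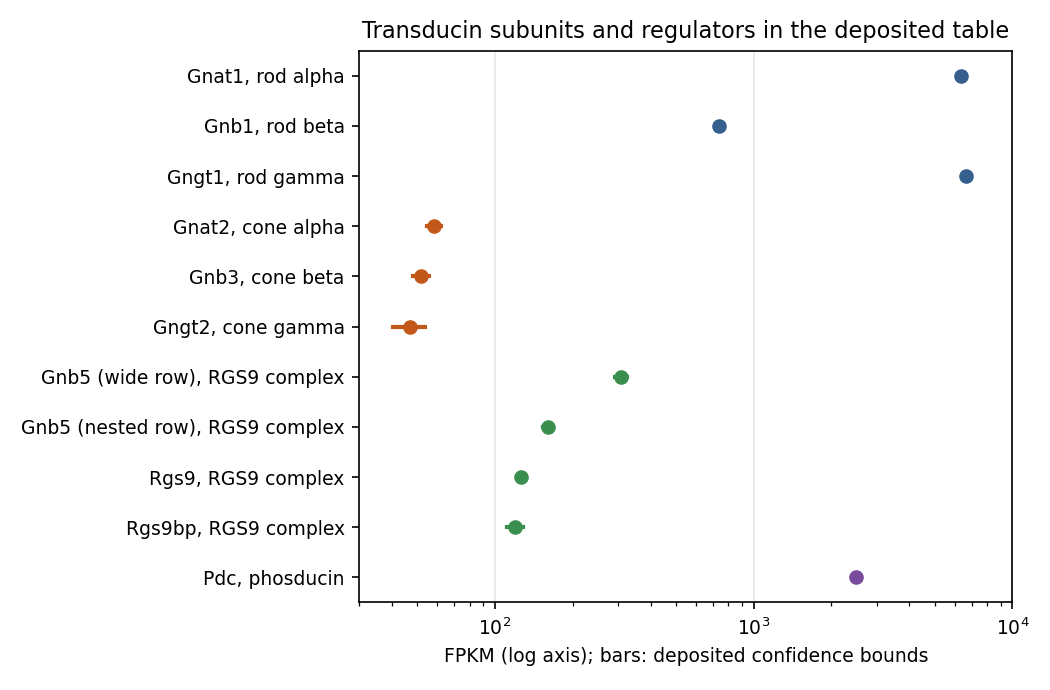
FPKM (log axis) of each row of the 10 genes, grouped by role, with the deposited confidence bounds as bars; Gnb5 has 2 rows, a wide one and one nested inside it. Gngt1 and Gnat1 stand at 6641 and 6316 FPKM and the 3 cone subunits between 47.2 and 58.4 FPKM.

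Gnat1, which encodes the rod alpha subunit, was at 6316 FPKM, with deposited bounds of 6284 and 6348. Its row (ENSRNOG00000017589) covers positions 115788412 to 115793148 of chromosome 8 in build rn5. If the deposited bounds lie 2 standard errors from the value and reflect counting alone, the value rests on 152946 fragments. Gngt1, the small gamma subunit that carries the lipid anchor of the rod beta-gamma pair, was at 6641 FPKM (bounds 6556 and 6726). It rests on 24318 implied fragments, fewer than Gnat1, since fragments per unit of FPKM scale with transcript length: 3.66 for Gngt1 and 24.2 for Gnat1. Per length, Gngt1 was 1.05 times Gnat1 (95% counting interval 1.04 to 1.07). By implied fragments the ratio was 0.159. The interval per length leaves out 1, but it covers counting error alone, and other error in the FPKM values is not measured here.

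Gnb1, the beta subunit of rod transducin, which is also expressed in many other cells, was far below its partners. It stood at 734 FPKM (bounds 720.3 and 747; ENSRNOG00000016638, chromosome 5, positions 176410631 to 176455109), with 11825 implied fragments. Gnat1 was 8.61 times Gnb1 (8.45 to 8.77) and Gngt1 was 9.05 times Gnb1 (8.85 to 9.25). The rod trimer was thus uneven at the RNA level, with alpha and gamma close together and beta lower. The 3 rod subunits together summed to 13691 FPKM.

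The 3 cone subunits stood within a narrow range of each other. Gnat2, the cone alpha subunit, was at 58.4 FPKM (bounds 54.6 and 62.2; ENSRNOG00000019296, chromosome 2, positions 230349648 to 230359129). Gnb3, a beta subunit of cones that is also known from ON bipolar cells, was at 52.1 FPKM (48.5 and 55.6; ENSRNOG00000015541, chromosome 4, positions 224370235 to 224375938). Gngt2, the cone gamma subunit, was at 47.2 FPKM (40.6 and 53.8; ENSRNOG00000006108, chromosome 10, positions 83459562 to 83462703) and rests on 204 implied fragments, the fewest of the 10. Gnat2 was 1.12 times Gnb3 (1.02 to 1.23) and 1.24 times Gngt2 (1.06 to 1.44). Gnb3 was 1.10 times Gngt2 (0.948 to 1.29), a difference within counting error. By implied fragments, which are not per length, Gnb3 was 4.26 times Gngt2 (3.65 to 4.96) and Gnat2 was 4.66 times Gngt2, so the closeness of the gamma subunit to its partners holds per length only. The cone trimer summed to 158 FPKM.

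Set against its cone counterpart, each rod subunit was higher, but by unequal factors. The rod to cone ratio was 108 for alpha (101 to 115), 14.1 for beta (13.2 to 15.1) and 141 for gamma (123 to 162). The alpha ratio was 7.67 times the beta ratio (6.98 to 8.43). The gamma ratio was 1.30 times the alpha ratio (1.12 to 1.52) per length, but by implied fragments the order turned, with 119 for gamma and 161 for alpha. How much of the Gnb1 and Gnb3 signal came from cells other than photoreceptors was not tested.

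**Figure D2:**
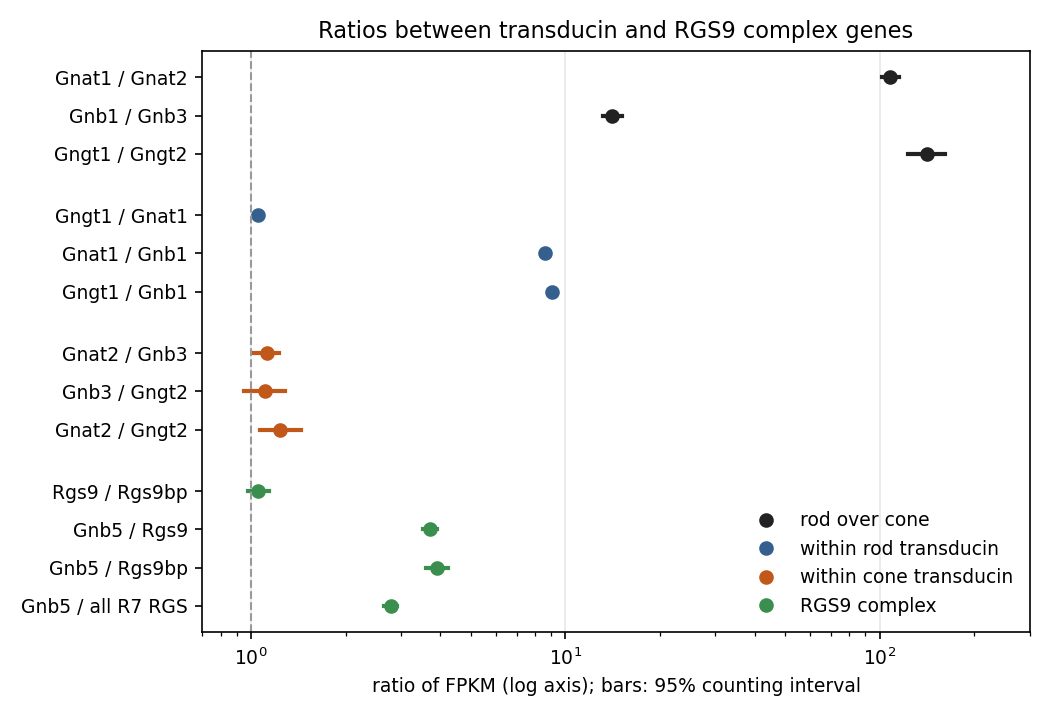
Ratios of FPKM (log axis) between pairs of genes, with 95% counting intervals as bars and a dashed line at 1; "all R7 RGS" is the sum of Rgs6, Rgs7, Rgs9 and Rgs11. The rod to cone ratio is 108 for alpha and 141 for gamma but 14.1 for beta, and ratios within the cone trimer lie between 1.10 and 1.24.

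Within each class of G protein subunit, the rod transducin gene held over 90% of the FPKM. Gnat1 made up 90.3% (90.05% to 90.5%) of the summed FPKM of 16 alpha subunit genes, and Gnat2 0.835%. Of the 14 other alpha subunits, 11 reached 1 FPKM, and their median was 16.6 FPKM. They were led by Gnas, the stimulatory alpha subunit of adenylyl cyclase signalling, at 372 FPKM over 2 rows, and Gnao1, which carries the mGluR6 signal of ON bipolar cells, at 69.6 FPKM. Nearly all of the Gnas value comes from a row that spans 1080 bp. The third transducin alpha gene of the genome, Gnat3, known from taste cells and picked here for its low value, was listed at 0.055 FPKM, which rests on 1 implied fragment.

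Gnb1 made up 90.4% (89.9% to 90.9%) of the summed FPKM of the 4 conventional beta subunits, and Gnb3 6.41%. With Gnb5, which pairs with RGS proteins in place of gamma subunits, counted in the class, the share of Gnb1 was 57.3%. The other beta subunits were Gnb2 at 23.4 FPKM and Gnb4 at 2.27 FPKM. Gngt1 made up 93.2% (92.4% to 94.0%) of the summed FPKM of 12 gamma subunits, and Gngt2 0.662%. Of the 10 other gamma subunits, 9 reached 1 FPKM, and their median was 26.1 FPKM. Gng2, a broadly expressed gamma subunit, led them at 187 FPKM, but its bounds of 132 and 242 are wide, with 46 implied fragments. Gng13, the gamma subunit of ON bipolar cells, followed at 109 FPKM (93.9 and 124). Per length, the cone gamma subunit therefore stood below both of these genes. By implied fragments, which are not per length, Gngt2 with 204 was above Gng2 and close to Gng13 with 205. The cone alpha subunit at 58.4 FPKM stood below Gnas and Gnao1.

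The genes of the RGS9 complex lay between the rod and the cone subunits. Rgs9, the GTPase-activating subunit that limits how long transducin stays active, was at 127 FPKM (bounds 122 and 131; ENSRNOG00000003800, chromosome 10, positions 97225541 to 97298645). Rgs9bp, which tethers RGS9 to the disc membrane, was at 120.3 FPKM (112 and 129; ENSRNOG00000012877, chromosome 1, positions 92983020 to 92983733). Rgs9 was 1.05 times Rgs9bp (0.974 to 1.14), so the catalytic subunit and its anchor could not be told apart by counting error per length. They rest on 3465 and 759 implied fragments, a ratio of 4.56 that is not per length. The row of Rgs9bp spans 714 bp, and whether its transcript model is complete was not tested.

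Gnb5, the beta-like partner that stabilises RGS9 and its relatives, is split over 2 rows that overlap on chromosome 8, so its level is uncertain. The wide row (ENSRNOG00000047799, positions 81861124 to 82010315) was at 309 FPKM (bounds 292 and 325) and also covers the rows of Bcl2l10, Mapk6 and Leo1. The row nested in it (ENSRNOG00000008926, positions 81880465 to 81889635) was at 160.5 FPKM (154 and 167). Per length, the wide row was 1.92 times the nested one (1.80 to 2.06). By implied fragments, which are not per length, the wide row was lower, with 1365 against 2227. Their sum was 469 FPKM (computed interval 451 to 487), and how the authors' counting divided fragments between them is not given in the sources used here. Gnb5 was 3.70 times Rgs9 (3.52 to 3.89) by the sum, 2.43 times (2.29 to 2.59) by the wide row and 1.27 times (1.20 to 1.34) by the nested row. By each of these readings per length Gnb5 stood above Rgs9, while the implied fragments, which are not per length, were 1.04 times those of Rgs9 (0.989 to 1.09).

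Gnb5 also partners the other RGS proteins of the R7 family. These were lower than Rgs9: Rgs11 was at 18.1 FPKM, and Rgs9 was 6.98 times that (6.32 to 7.72). Summed over Rgs6, Rgs7, Rgs9 and Rgs11 the R7 family reached 169 FPKM. Gnb5 was 2.78 times this sum (2.65 to 2.91) with both rows, 1.83 times (1.72 to 1.94) with the wide row and 0.950 times with the nested row. Whether Gnb5 exceeded its R7 partners therefore depends on which row is read, and by implied fragments the ratio was 0.819. The list of other R7 proteins and their anchors, 6 genes that all reached 1 FPKM, had its median at 12.02 FPKM. Its highest gene was Gpr179, an anchor of RGS proteins in ON bipolar cells, at 21.9 FPKM. Rgs7bp, the relative of Rgs9bp that anchors the R7 family elsewhere, was at 4.40 FPKM, and Rgs9bp was 27.3 times that (19.1 to 39.2). Among 16 further RGS genes, 12 reached 1 FPKM, and their median was 2.65 FPKM. They were led by Rgs8 at 31.4 FPKM and Rgs5, a pericyte gene, at 27.1 FPKM, both below Rgs9.

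Set against transducin itself, the regulator was scarce beside the rod alpha subunit and abundant beside the cone one. Gnat1 was 49.8 times Rgs9 (48.2 to 51.5), while Rgs9 was 2.17 times Gnat2 (2.02 to 2.33) and Rgs9bp was 2.06 times Gnat2 (1.87 to 2.27). Since rods and cones share the complex, these ratios do not give its level in either cell type. By implied fragments, which favour long transcripts, Rgs9bp was 0.798 times Gnat2.

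Pdc, which encodes phosducin, was the third highest of the 10. It stood at 2485 FPKM (bounds 2457 and 2513; ENSRNOG00000002517, chromosome 13, positions 72510241 to 72523360), with 31172 implied fragments. It was 3.39 times Gnb1 (3.32 to 3.46), the beta subunit it binds, while Gnat1 was 2.54 times Pdc (2.51 to 2.57). Its relative Pdcl, a co-chaperone in the folding of beta subunits in many cells, was at 21.9 FPKM, and Pdc was 114 times that (105 to 122).

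The list of 25 genes that fold, lipidate, carry or bind transducin and related G proteins had no member below 1 FPKM, and its median was 37.9 FPKM. Unc119, which binds the acylated end of transducin alpha and returns it to the outer segment, led it at 842 FPKM (826 and 858). Per length Unc119 was above Gnb1, but by implied fragments it was below, with 11249 against 11825. Gnat1 was 7.50 times Unc119 per length (7.36 to 7.64). Pcp2, a modulator of G alpha o and G alpha i in ON bipolar cells, followed at 113 FPKM. The 8 subunits of the CCT chaperonin, which folds beta subunits, ranged from 36.8 to 85.1 FPKM with a median of 61.4 FPKM, a narrow range beside that of the transducin genes. The remaining genes of the rod and cone cascade, 23 in all, had 1 below 1 FPKM, and their median was 138 FPKM. Among them Pde6g, the inhibitory subunit of the rod phosphodiesterase that transducin alpha displaces, was at 4609 FPKM, and Rcvrn, which encodes the calcium sensor recoverin, was at 2372 FPKM. Photoreceptor genes were thus present in the RNA labelled as retina.

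**Figure D3:**
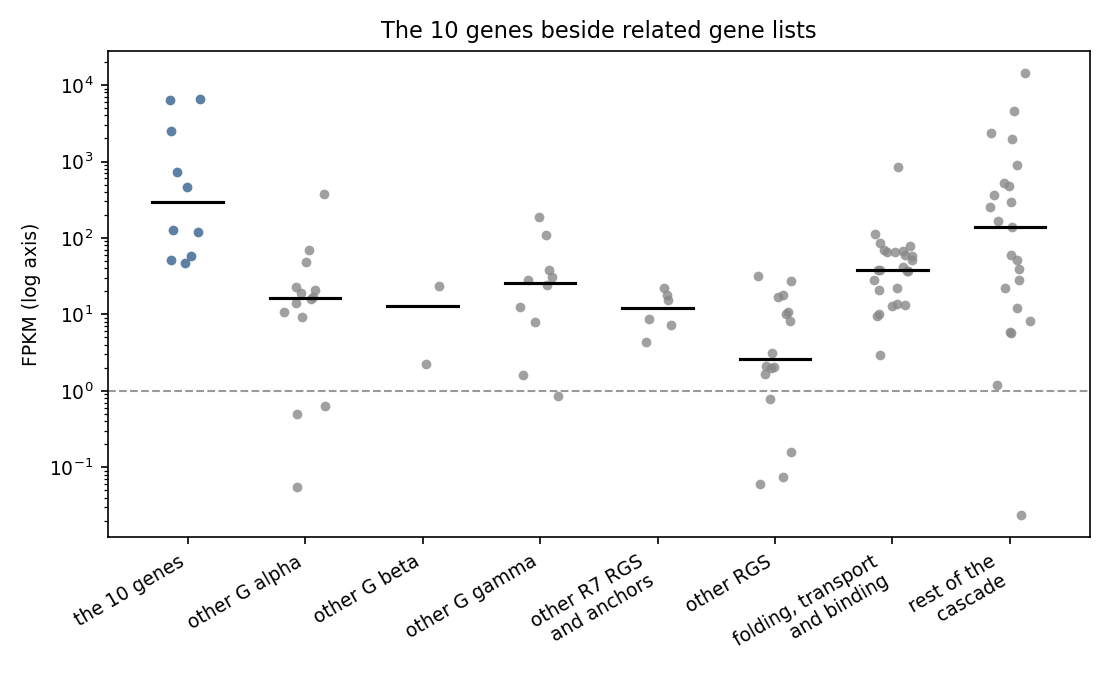
FPKM (log axis) of the 10 genes (blue) and of the 7 related gene lists (grey), 1 point per gene, with black lines at the medians and a dashed line at 1 FPKM. The median of the 10 genes is 298 FPKM, against 138 FPKM for the rest of the cascade and 2.65 to 37.9 FPKM for the other 6 lists.

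Ranked by FPKM over all symbols, Gngt1 was at place 2, Gnat1 at 3, Pdc at 6, Gnb1 at 18 and Gnb5 at 35. Gnat1 was followed by Pde6g at 4609 FPKM. Pdc stood between RPL39, a ribosomal protein gene, at 3205 FPKM and Rcvrn at 2372 FPKM. Gnb1 stood between the glycolytic genes Aldoa at 757 FPKM and Gapdh at 709 FPKM. Gnb5, with its rows summed, stood between the ribosomal protein gene Rpl34 at 479.5 FPKM and the cyclophilin gene Ppia at 467 FPKM. The other 5 genes fell outside the first 100: Rgs9 at place 258, Rgs9bp at 279, Gnat2 at 750, Gnb3 at 881 and Gngt2 at 1007. In the order of the 10 genes, 2 of the 9 neighbouring pairs could not be told apart by counting error per length, Rgs9 with Rgs9bp and Gnb3 with Gngt2.

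**Figure D4:**
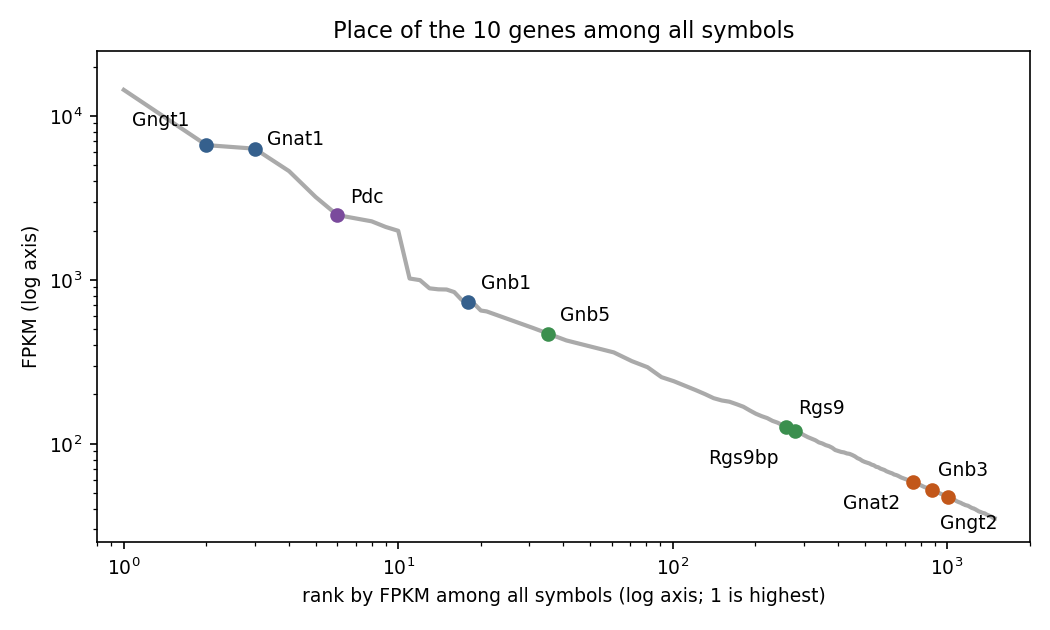
FPKM against rank among all symbols, both on log axes, with the 10 genes as points on the curve of all symbols (grey). Gngt1, Gnat1 and Pdc lie within the first 6 places and the 3 cone subunits between places 750 and 1007.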

How the data were processed

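The authors deposited 1 gene table of FPKM values in Cufflinks format, with a lower and an upper bound per gene, per the file headers. Cufflinks 2.0.8 and rat build rn5 stand in the submitters' processing notes. The aligner, the annotation release, the confidence level and the libraries behind the values were not given in the sources used here. No column names a sample, so the comparisons between groups (limma on log2 values) and their alternatives were not run, and no p-value is given. All genes and lists were chosen with earlier results of these data known.

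With Python 3.11.15, numpy 2.4.6 and pandas 2.3.3, rows that share a symbol in any case were summed (20601 of 26406 rows carry a symbol). The bounds were read as 2 standard errors, from which fragment numbers and 95% intervals of ratios and shares were computed. Fragment numbers and ratio intervals, but not shares, were tried on simulated data. Those data were built with counting error alone, so they check the arithmetic and cannot test this reading of the bounds. Among 11492 rows with up to 200 implied fragments, 69.6% (Wilson 95% interval 68.7% to 70.4%) came within 0.02 of a whole number. All 10 genes lie above 200, where this reading is an assumption. Over all rows the implied fragments sum to 6124332, and the intervals cover counting error only, not animals or libraries. FPKM depends on the annotated transcript models, so an incomplete model shifts a level between genes.

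The text names the 10 genes, the 2 highest of each of 7 related lists (96 genes) and the rank neighbours of those among the 100 highest symbols; 1 gene that this rule names is not reported here. Promoter windows are from RefSeq, build GRCr8, matched by symbol. With no value per library, likeness of pattern between genes could not be computed.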

Additional observations from a re-analysis of the deposited data

How the results depend on the processing

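No paired analysis was possible because no column could be tied to a library, and no replicate could be left out. With only the highest row per symbol, Gnb5 was at 309 FPKM and at place 101 among all rows, the other 9 levels did not move, Gnb5 was 2.43 times Rgs9, 2.56 times Rgs9bp and 1.83 times the summed R7 family, and Gnb1 was 2.38 times Gnb5. Places among rows or among symbols whose row spans 300 bp or more stayed within 1.5 times for 19 of 20 values. That span is of the genomic locus and not of the transcript, so it cannot test an effect of transcript length. All 10 genes passed a minimum of 5 FPKM or a lower bound of 1 FPKM.

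Implied fragment numbers are not divided by length, so genes with long transcripts gain in them. Of 23 ratios, 3 turned round on this scale: Gngt1 to Gnat1 was 0.159, Rgs9bp to Gnat2 was 0.798 and Gnb5 to the R7 family was 0.819. Another 17 moved beyond their interval. The rod to cone ratio became 161 for alpha and 119 for gamma, so the order of these 2 ratios changed. Gnat1 was 12.9 times Gnb1, and Gngt1 was 2.06 times Gnb1. Gnb3 was 4.26 times Gngt2, Gnat2 was 4.66 times Gngt2 and Rgs9 was 4.56 times Rgs9bp. Gnb5 was 1.04 times Rgs9 and 4.73 times Rgs9bp, and Gnb1 was 3.29 times Gnb5. Gnat1 was 44.1 times Rgs9 and Rgs9 was 3.64 times Gnat2. Pdc was 2.64 times Gnb1 and Gnat1 was 4.91 times Pdc. Outside the 10 genes, Gnat1 was 13.6 times Unc119, Pdc was 44.4 times Pdcl and Rgs9 was 7.94 times Rgs11.

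The class shares and their alternatives were chosen after seeing the data. On implied fragments Gnat1 made up 94.8% of the alpha class and Gngt1 95.3% of the gamma class. With Gnb5 counted in the beta class, the share of Gnb1 was 57.3%. Gngt2, with 204 implied fragments, limits the precision of each ratio it enters.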
